A study of Mus musculus with 12 samples.

Results

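In these data 10 genes around glucocorticoid action were followed through 12 colon libraries of mice with colitis: Crispld2, H6pd, Hsd11b1, Hsd11b2, Nr3c1, Nr3c2, Fkbp5, Tsc22d3, Zbtb16 and Sgk1. They are 10 of the 55335 genes in the deposited table and were taken by symbol. Crispld2 and H6pd were chosen by their deposited FPKM, for how far they moved with thymopentin in DSS colitis, so their values are a description and carry no test. All mice were wild type, and all had colitis raised by trinitrobenzene sulfonic acid (TNBS), a hapten, or by dextran sulfate sodium (DSS), a polymer that injures the epithelium. Each model had 3 libraries of mice given normal saline and 3 of mice given thymopentin, a synthetic pentapeptide made after thymopoietin. Every group therefore carries colitis, and no library of a colon without colitis was analysed here. The sources used here do not give dose, timing, strain, sex or age. Nothing states how the libraries of a group relate to animals, so p-values measure the spread between these libraries, which may be technical in part.

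Glucocorticoids act through the glucocorticoid receptor Nr3c1, which waits in the cytoplasm bound to heat shock proteins and, once it holds the hormone, enters the nucleus and binds DNA. Inside the tissue the hormone is made and unmade locally. Hsd11b1, an enzyme of the endoplasmic reticulum, turns the inactive 11-keto form back into active hormone, and it draws the NADPH for this step from H6pd, hexose-6-phosphate dehydrogenase. Hsd11b2 runs the opposite reaction and shields the mineralocorticoid receptor Nr3c2 in the colon epithelium, where aldosterone controls sodium uptake. Fkbp5, Tsc22d3 (also called GILZ), Zbtb16 and Sgk1 are widely used target genes of these receptors. Crispld2 encodes a secreted protein with a CAP domain and LCCL domains that binds endotoxin and is induced by glucocorticoids in some mesenchymal cells.

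The promoter windows of Crispld2, H6pd and Fkbp5, which were lower in DSS thymopentin by more than 2-fold, are printed to show what sequence lies before their starts. Each is the 250 bases before the start in RefSeq, build GRCm38.p6, and capitals mark the receptor hexamer AGAACA or its reverse complement TGTTCT.
Crispld2, chr8:119992188-119992437, plus strand: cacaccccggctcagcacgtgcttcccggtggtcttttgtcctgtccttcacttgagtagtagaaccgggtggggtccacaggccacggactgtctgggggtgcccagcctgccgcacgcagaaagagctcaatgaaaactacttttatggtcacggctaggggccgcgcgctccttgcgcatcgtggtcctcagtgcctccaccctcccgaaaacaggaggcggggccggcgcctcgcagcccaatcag
H6pd, chr4:150003237-150003486, minus strand: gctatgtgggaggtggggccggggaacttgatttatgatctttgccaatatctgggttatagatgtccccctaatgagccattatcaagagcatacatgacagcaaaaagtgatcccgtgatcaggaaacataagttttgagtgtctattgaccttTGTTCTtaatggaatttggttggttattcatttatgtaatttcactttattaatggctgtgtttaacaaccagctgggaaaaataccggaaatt
Fkbp5, chr17:28486150-28486399, minus strand: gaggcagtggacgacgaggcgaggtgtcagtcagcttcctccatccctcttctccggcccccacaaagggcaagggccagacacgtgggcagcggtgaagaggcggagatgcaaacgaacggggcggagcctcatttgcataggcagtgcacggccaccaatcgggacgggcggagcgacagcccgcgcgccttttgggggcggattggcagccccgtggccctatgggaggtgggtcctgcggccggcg
Crispld2 and Fkbp5 held no hexamer in these windows. H6pd held 1, as TGTTCT, which starts 94 bases before the start. By base composition the H6pd window stood apart, with 38.8% G and C, against 63.2% for Crispld2 and 68.0% for Fkbp5. The RefSeq start of Crispld2 is the same base as in the GENCODE M21 annotation, while for H6pd and Fkbp5 the outermost GENCODE start lies 5787 and 31378 bases further upstream. None of the 3 windows overlaps an annotated exon.

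Windows were found for 7 of the 10 genes, 14 in all, of which 6 belong to Sgk1 and 3 to Tsc22d3. The hexamer was present on either strand in 5 of these 14, 3 of them of Sgk1, and in 16.1% of the 32851 mouse windows of this length. By gene it was present for 3 of the 7, H6pd, Tsc22d3 and Sgk1. No share by gene was computed over all mouse genes, so the 16.1% of windows is no measure for this count. The palindromic element GNACANNNTGTNC, which can overlap a hexamer, was present in 0.387% of all windows and in 1 window of the 10 genes. That window belongs to Sgk1, a kinase that raises sodium channel activity, and is shown because it was the only match.
Sgk1, chr10:21993702-21993714, plus strand, 188 bases before the start: GaACAgaaTGTtC
The capitals there mark the fixed letters of the element. These matches are descriptions of sequence and say nothing of binding.

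Levels are given as deposited FPKM, in which fragments are divided by transcript length and by library size. Summed FPKM lay between 384431 and 532510 per library; the sources used here do not give read totals. The 10 epithelial markers summed to between 5177 and 9796 FPKM per library, so the labelled tissue is represented. TNBS saline libraries differed among themselves: 10 smooth muscle markers summed to 1509, 786 and 2391 FPKM in libraries 1, 2 and 3. Each gene was tested with limma on log2(FPKM + 1), a scale that understates the change of low genes, among the 13794 genes whose mean FPKM reached 1. Genes called are those at a Benjamini-Hochberg adjusted p under 0.05. Hsd11b1 and Zbtb16, at means of 0.937 and 0.631 FPKM over the 12 libraries, fell below this minimum, which left 8 of the 10 genes tested and 6 of the 8 other than Crispld2 and H6pd. Exact permutation of 3 libraries against 3 has 0.1 as its smallest p and was not used.

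Mean Crispld2 was lower with thymopentin in DSS colitis and higher in TNBS colitis, as a description without a test. In DSS saline it was measured at 6.31, 7.10 and 8.38 FPKM, and in DSS thymopentin at 0.435, 0.376 and 0.366 FPKM. The DSS groups were far apart: the means were 7.27 ± 1.04 and 0.392 ± 0.0375 FPKM (SD, n = 3), 18.5-fold lower with thymopentin. In TNBS saline the values were 1.77, 1.59 and 2.01 FPKM, and in TNBS thymopentin 2.34, 3.68 and 3.18 FPKM. Here too the groups did not overlap, but thymopentin lay on the higher side. The means were 1.79 ± 0.209 and 3.07 ± 0.676 FPKM (SD, n = 3), a ratio of 1.72. Groups without overlap were found for 18.8% of all tested genes in TNBS and 39.8% in DSS. On the log2(FPKM + 1) scale the differences were -2.56 in DSS and 0.53 in TNBS. Under saline Crispld2 was 4.06-fold higher in DSS than in TNBS, and under thymopentin 7.82-fold lower.

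H6pd, the source of NADPH for Hsd11b1, was close to 0 in the DSS thymopentin libraries, while its TNBS groups overlapped. The DSS saline libraries held 3.39, 6.06 and 5.93 FPKM, and the DSS thymopentin libraries 0.254, 0.159 and 0.102 FPKM. Every saline library was above every thymopentin library, with means of 5.13 ± 1.5 and 0.171 ± 0.0771 FPKM (SD, n = 3), 29.9-fold apart. TNBS saline gave 3.68, 4.32 and 4.67 FPKM and TNBS thymopentin 3.18, 4.30 and 3.74 FPKM. These ranges overlap, with a difference of -0.14 on the log2(FPKM + 1) scale. In DSS it was -2.36. Under thymopentin H6pd was 21.8-fold lower in DSS than in TNBS, whereas the saline groups of the 2 models overlapped.

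**Figure D1:**
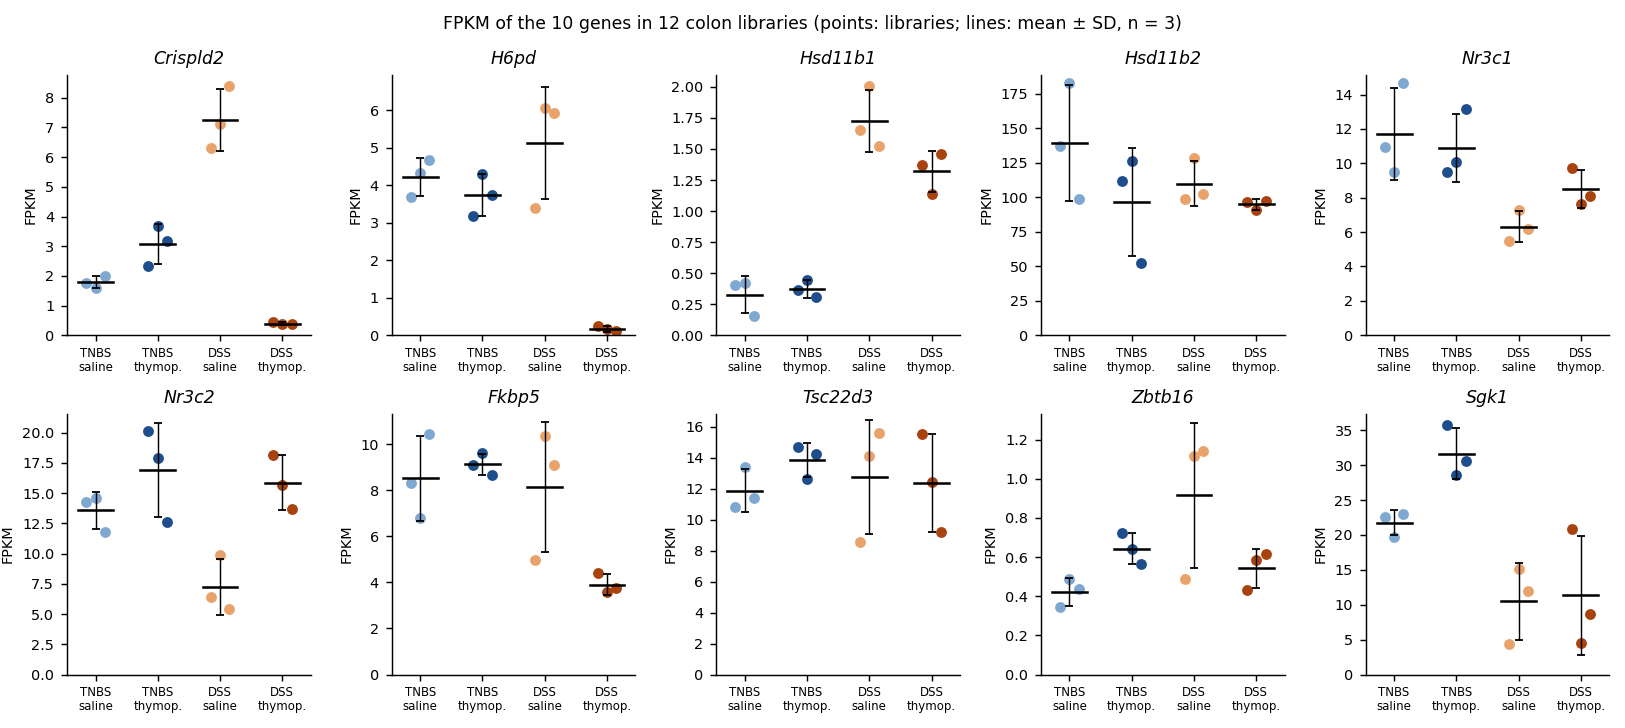
FPKM of each gene in every library (points), by group on the horizontal axis, with the mean and SD of 3 libraries as lines; each panel has its own linear axis from 0. Crispld2 and H6pd stand close to 0 in DSS thymopentin, at 0.392 and 0.171 FPKM on average, and Hsd11b1 is higher in both DSS groups than in both TNBS groups.

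The depth behind these values can be read from the authors' deposited table for DSS, which holds genes at p-values up to 0.05 whose log2 fold change was 1 or more in size. Its per-library values gave back whole reads. Crispld2 had 1256, 1309 and 1539 reads in DSS saline and 81, 59 and 71 in DSS thymopentin. H6pd had 741, 1228 and 1197 reads in DSS saline and 51, 27 and 22 in DSS thymopentin. Both genes were thus still detected in every thymopentin library. In the authors' deposited table Crispld2 and H6pd had log2 fold changes of -4.30 and -5.03, ranks 16 and 8 from the most negative among 1454 lower genes. Both were chosen for how far they moved in these same libraries, so the ranks are no separate evidence. Of the other members the table lists Fkbp5 and Nr3c2, and the authors' deposited TNBS table lists none of the 10.

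**Figure D2:**
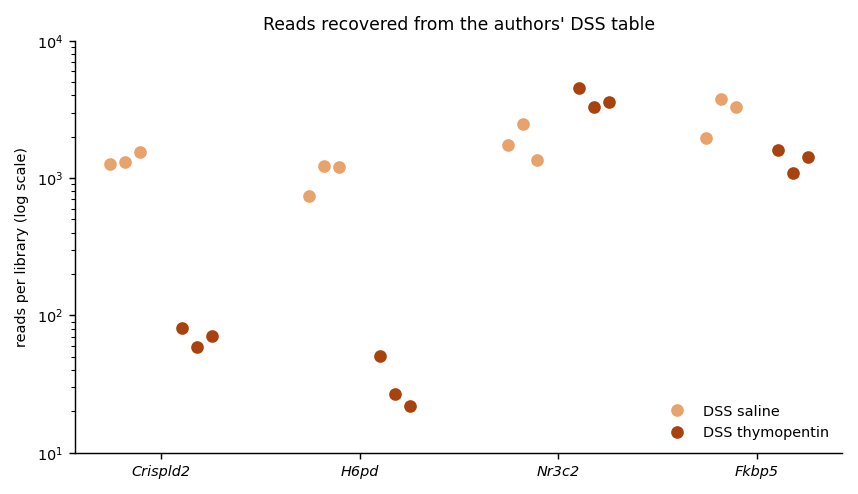
Reads per library on a log axis for the 4 members listed in the authors' DSS table; light points are DSS saline and dark points DSS thymopentin libraries. Crispld2 and H6pd lie between 741 and 1539 reads with saline and between 22 and 81 with thymopentin, while Nr3c2 lies higher and Fkbp5 lower with thymopentin.

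In a bulk library, fewer cells of a type and less RNA per cell cannot be told apart. Calls among markers of other cell types can be read against all tested genes, of which 12.7% rose and 4.3% fell in DSS and 0.667% were called in TNBS. The summed FPKM of 10 smooth muscle markers ranged from 3004 to 3544 in DSS saline and from 1307 to 1979 in DSS thymopentin, and 5 of the 10 fell, such as the muscle intermediate filament Des (-1.22 ± 0.36, SE, limma adjusted p = 0.0443). For 10 fibroblast markers the ranges were 209.1 to 249.7 and 176 to 201, and 3 fell, among them the proteoglycan Dcn (-0.51 ± 0.10, adjusted p = 0.0104). Neuron and glia markers ranged from 44.2 to 54.1 in DSS saline and 17.9 to 29.6 in DSS thymopentin, with 8 of 9 tested called lower. In TNBS the fibroblast sum ran from 85.4 to 99.1 with saline and from 137 to 164 with thymopentin, and 3 of 10 markers rose, Dcn by 0.83 ± 0.10 (adjusted p = 0.00674). Of the other markers in DSS, 2 of 10 for epithelium rose, with sums of 5177 to 6405 with saline and 5569 to 6396 with thymopentin. Falls were called for 3 of 4 tested neutrophil, 1 of 8 macrophage and 1 of 6 endothelial markers, none of 8 T cell markers was called, and 1 of 8 B and plasma cell markers rose. Set beside the TNBS groups, the fibroblast sum of DSS thymopentin lay above both. The smooth muscle sum of DSS thymopentin overlapped with both, at 786 to 2391 in TNBS saline and 1620 to 2240 in TNBS thymopentin. The neuron and glia sum was 15.0 to 16.7 in TNBS saline and 19.8 to 33.3 in TNBS thymopentin. The part of these markers in the Crispld2 and H6pd values, and in those of the other members below, was not tested.

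The antisense model Gm15684, which overlaps Crispld2, reached at most 0.156 FPKM, and the same-strand model Gm20388 was listed at 0 in all 12 libraries. No annotated gene overlaps H6pd.

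Hsd11b1, the reactivating enzyme that depends on H6pd, was scarce in TNBS and several-fold higher in DSS. TNBS saline held 0.401, 0.423 and 0.153 FPKM, TNBS thymopentin 0.366, 0.446 and 0.305, DSS saline 1.65, 2.01 and 1.53, and DSS thymopentin 1.37, 1.14 and 1.46. Every DSS library was above every TNBS library, and the means differed 5.30-fold under saline and 3.55-fold under thymopentin. Without the expression minimum, which it does not reach, limma gave 1.04 (adjusted p = 0.000397) and 0.76 (adjusted p = 0.00533) for these differences on the log2(FPKM + 1) scale. The thymopentin differences of Hsd11b1 did not pass (0.05 in TNBS and -0.23 in DSS, adjusted p = 0.966 and 0.297), although the DSS groups did not overlap. Markers of stromal and immune cells were also higher in DSS: under saline the fibroblast sum was 209.1 to 249.7 FPKM against 85.4 to 99.1 in TNBS, and that of 8 macrophage markers 354 to 512 against 67.1 to 182. Lamb3, a laminin chain gene on the opposite strand that overlaps Hsd11b1, was at 16.9 to 25.2 FPKM. The libraries were strand-specific per the labels, but no source used here states whether the counting used strand, so the low Hsd11b1 values are uncertain.

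Hsd11b2, the inactivating enzyme, was the most abundant of the 10 genes in every group. It was measured at 137, 183 and 98.8 FPKM in TNBS saline, 112, 127 and 52.5 in TNBS thymopentin, 99.1, 129 and 102 in DSS saline and 97.0, 90.5 and 97.5 in DSS thymopentin. The TNBS groups overlap widely. In DSS the thymopentin libraries all lay just below the saline libraries, by -0.20 ± 0.30 (SE, limma adjusted p = 0.680), and in TNBS the difference was -0.57 ± 0.30 (adjusted p = 0.486). Neither model comparison passed (-0.31 with saline and 0.07 with thymopentin, adjusted p = 0.435 and 0.893).

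Set against each other within a library, the 2 enzymes stood in a different ratio in the 2 models. The FPKM ratio of Hsd11b2 to Hsd11b1 ran from 342 to 645 in TNBS saline (median 431) and from 172 to 305 in TNBS thymopentin (median 284). In DSS it ran from 60.04 to 66.9 with saline and from 66.9 to 79.7 with thymopentin. All 6 DSS ratios lay below all 6 TNBS ratios. The ratio of H6pd to Hsd11b1 was 2.06 to 3.89 in DSS saline and 0.0698 to 0.186 in DSS thymopentin, while the TNBS groups overlapped, with medians of 10.2 and 9.65. These ratios use the H6pd and Hsd11b1 values above and are no separate evidence.

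**Figure D3:**
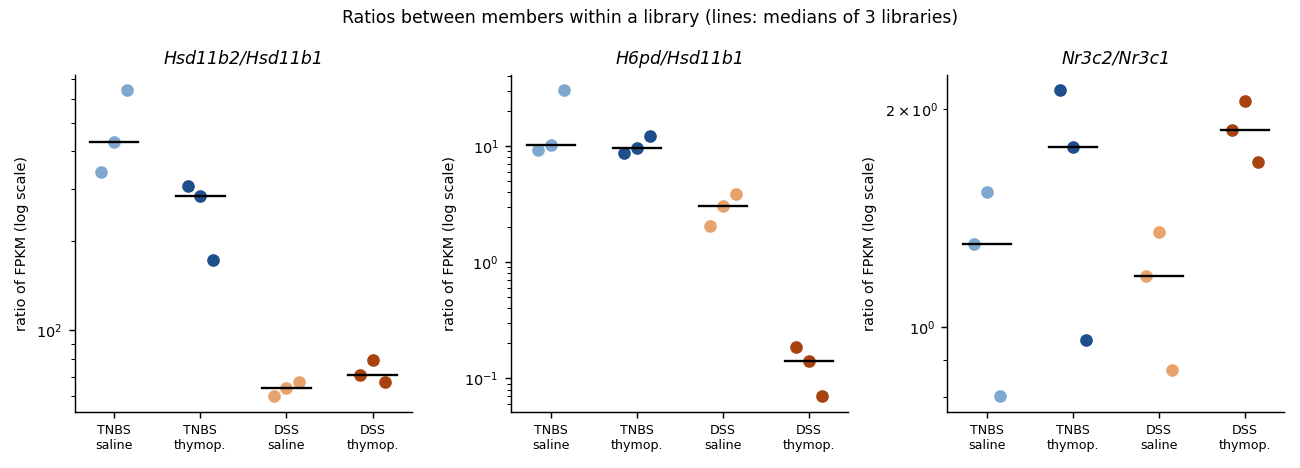
Ratios of FPKM between 2 members within each library (points, log axes), by group, with the median of 3 libraries as a line. The Hsd11b2 to Hsd11b1 ratio is lower in DSS than in TNBS, the H6pd to Hsd11b1 ratio is lowest in DSS thymopentin, and the Nr3c2 to Nr3c1 ratio does not overlap between the DSS groups.

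Of the receptors, Nr3c2 rose with thymopentin in DSS colitis. It was measured at 6.43, 9.88 and 5.40 FPKM in DSS saline and 18.2, 15.7 and 13.7 in DSS thymopentin. The groups did not overlap and the means were 2.19-fold apart. The difference of 1.06 ± 0.21 (SE; 95% interval 0.59 to 1.53) passed, with a limma adjusted p of 0.0104 that stayed at or below 0.0429 in all 21 alternatives. In the authors' deposited table its log2 fold change was 1.04 with an FDR of 6.77e-06. Its reads were 1737, 2473 and 1346 in DSS saline and 4508, 3288 and 3568 in DSS thymopentin. TNBS saline held 14.3, 14.6 and 11.8 FPKM and TNBS thymopentin 20.2, 17.9 and 12.6, which overlap (0.28 ± 0.21, adjusted p = 0.651). Under saline Nr3c2 was lower in DSS than in TNBS, by -0.85 ± 0.21 (adjusted p = 0.00768), and under thymopentin the models were 0.07 apart (-0.07 ± 0.21, adjusted p = 0.829). The difference between the thymopentin responses, 0.78 ± 0.30, did not pass (adjusted p = 0.155).

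Nr3c1, the glucocorticoid receptor, was lower in DSS than in TNBS under saline. TNBS saline held 11, 9.51 and 14.7 FPKM and DSS saline 5.48, 7.30 and 6.19, with no overlap and a 1.85-fold ratio of means. That difference was -0.78 ± 0.17 (SE, limma adjusted p = 0.00376), and it passed in all 21 alternatives. With thymopentin the values were 9.49, 10.1 and 13.2 FPKM in TNBS and 9.73, 7.66 and 8.10 in DSS, which overlap (-0.32, adjusted p = 0.182). The thymopentin difference of Nr3c1 was 0.38 ± 0.17 in DSS, where the groups did not overlap, and -0.09 ± 0.17 in TNBS, and neither passed (adjusted p = 0.148 and 0.891). The FPKM ratio of Nr3c2 to Nr3c1 was 0.872 to 1.35 in DSS saline and 1.69 to 2.05 in DSS thymopentin.

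Fkbp5, a cochaperone that lowers the receptor's affinity for hormone and is itself induced by it, fell with thymopentin in DSS. Its values were 4.98, 10.3 and 9.07 FPKM in DSS saline and 4.41, 3.56 and 3.74 in DSS thymopentin. DSS saline 1 lay close to the thymopentin libraries, yet the groups did not overlap, and the means were 2.08-fold apart. The difference of -0.85 ± 0.22 (SE; 95% interval -1.33 to -0.37) had a limma adjusted p of 0.0262. It was lost without DSS saline 2 or 3 or DSS thymopentin 2 or 3 (adjusted p up to 0.0933), with no expression minimum (0.0592) and with the 6 DSS libraries alone (0.0661). The authors' deposited table gave -1.13 with an FDR of 3.88e-06, and reads of 1964, 3785 and 3303 in DSS saline and 1597, 1089 and 1424 in DSS thymopentin. In TNBS the values were 8.31, 6.78 and 10.4 FPKM with saline and 9.09, 9.60 and 8.66 with thymopentin (0.11 ± 0.22, adjusted p = 0.897). Under thymopentin Fkbp5 was lower in DSS than in TNBS (-1.05 ± 0.22, adjusted p = 0.00682), a call kept in all 21 alternatives, and under saline the difference was -0.09 (adjusted p = 0.754). The 2 thymopentin responses differed by -0.96 ± 0.31, which did not pass (adjusted p = 0.0987) except without DSS saline 1 (-1.24, adjusted p = 0.0164) and with array weights (adjusted p = 0.00565).

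Tsc22d3, an anti-inflammatory leucine zipper protein, gave no call in any comparison. It was measured at 10.8, 13.4 and 11.4 FPKM in TNBS saline, 14.7, 12.6 and 14.2 in TNBS thymopentin, 8.56, 14.1 and 15.6 in DSS saline and 15.5, 12.4 and 9.20 in DSS thymopentin. All 4 ranges overlap. The thymopentin difference was 0.21 ± 0.21 in TNBS (limma adjusted p = 0.763) and -0.03 ± 0.21 in DSS (adjusted p = 0.945), with a 95% interval from -0.50 to 0.45 in DSS.

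Zbtb16, a zinc finger repressor that is silent in many tissues until glucocorticoid is given, was the least abundant gene over the 12 libraries. The values were 0.346, 0.488 and 0.435 FPKM in TNBS saline, 0.721, 0.641 and 0.564 in TNBS thymopentin, 0.488, 1.12 and 1.14 in DSS saline and 0.430, 0.582 and 0.616 in DSS thymopentin. TNBS thymopentin lay above TNBS saline in every library, 1.52-fold by the means, and the DSS groups overlapped. Without the expression minimum limma called neither (0.21 and -0.29, adjusted p = 0.719 and 0.256), nor the model difference under saline (0.41, adjusted p = 0.0551).

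Sgk1 was lower in DSS than in TNBS under thymopentin. Its values were 22.5, 19.7 and 23.0 FPKM in TNBS saline and 35.7, 28.6 and 30.6 in TNBS thymopentin. In DSS saline they were 4.33, 15.2 and 11.9, and in DSS thymopentin 20.9, 4.48 and 8.72. The DSS groups were widely scattered, and no DSS library reached the TNBS range of its treatment. With thymopentin the model difference was -1.63 ± 0.48 (SE, limma adjusted p = 0.0291). This call was lost without any 1 of the TNBS thymopentin libraries or without DSS thymopentin 2 or 3 (adjusted p up to 0.104) and with no expression minimum (0.0709). Under saline it was -1.13 ± 0.48 (adjusted p = 0.0747), which passed in 4 of 21 alternatives. Although the TNBS groups did not overlap, with thymopentin 1.45-fold higher by the means, the difference of 0.52 ± 0.48 did not pass (adjusted p = 0.725). The fitted spread is shared by all 4 groups. In DSS the difference was 0.02 ± 0.48 (adjusted p = 0.980).

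**Figure D4:**
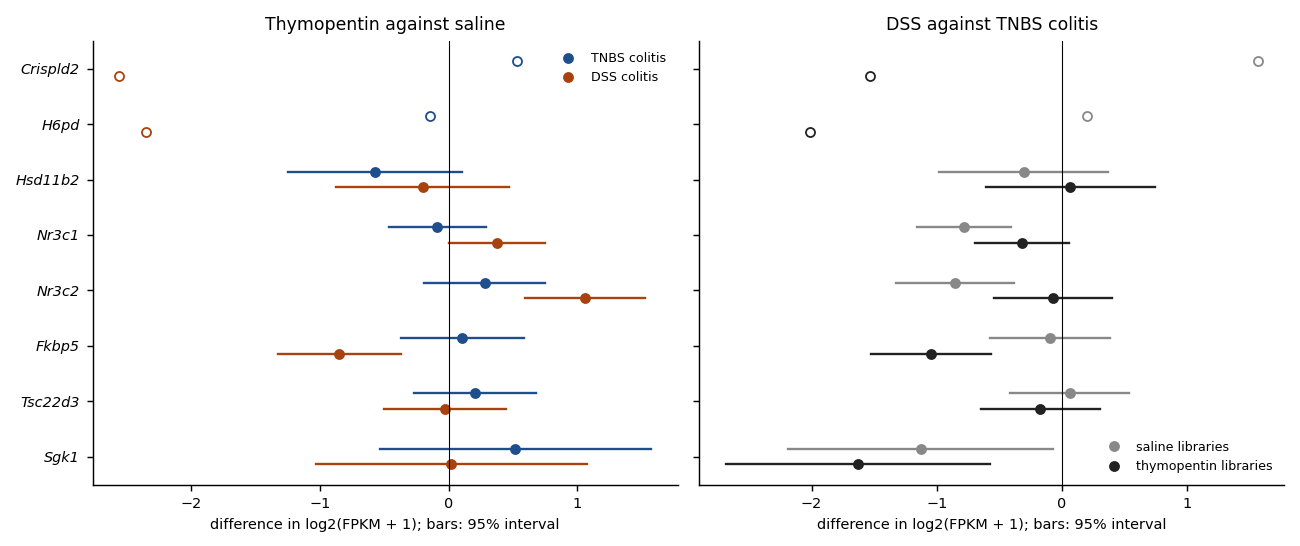
Difference in log2(FPKM + 1) with its 95% interval for the 8 tested members (no interval for Crispld2 and H6pd): thymopentin minus saline in each model (left) and DSS minus TNBS in each treatment (right). Open points mark Crispld2 and H6pd, which were chosen for these values; among the filled points Nr3c2 at 1.06 and Fkbp5 at -0.85 stand away from 0 in DSS colitis.

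Counted together, the 6 tested genes other than Crispld2 and H6pd gave 0 calls in TNBS, where 0.667% of all tested genes were called, 1748 of them had an unadjusted p under 0.05, and none of the 6 did. In DSS 2 of 6 were called (Nr3c2 higher and Fkbp5 lower), against 17% of all tested genes. For the difference between the responses the count was 0 of 6, against 5.15%, with Fkbp5 and Nr3c2 at an unadjusted p of 0.0102 and 0.0250, and array weights called both. Between the models 2 of the 6 were called under saline (Nr3c1 and Nr3c2), against 46.6%, and 2 under thymopentin (Fkbp5 and Sgk1), against 27.5%. With Crispld2 and H6pd the counts were 3 of 8 and 4 of 8. Crispld2 adds to both counts and H6pd to that under thymopentin, and these additions are not independent of the choice of the genes. Of the same 6 genes, libraries of saline and thymopentin did not overlap for 1 in TNBS (Sgk1), against 18.8% of all tested genes, and for 4 in DSS (Hsd11b2, Nr3c1, Nr3c2 and Fkbp5), against 39.8%. With Hsd11b1 and Zbtb16 it was 2 and 5 of 8, against 12.9% and 24% of every gene above 0, most of which are low. Between the models 3 of the 6 did not overlap under saline, against 56.5%, and 2 under thymopentin, against 46.2%. With Hsd11b1 and Zbtb16 it was 5 and 3 of 8, against 35.2% and 26.1% of every gene above 0. Which model a mouse had and any unrecorded difference in handling between the models cannot be told apart. The median of all tested genes was 0.12 higher with thymopentin in DSS and 0.14 lower in DSS than in TNBS under saline (-0.14), shifts that rescaling by median ratios moved to -0.01 and 0.00. None of the called member differences changed sign under any alternative.

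FPKM is scaled to transcript length, so levels can be ranked between genes. In TNBS saline the order of mean FPKM was Hsd11b2, Sgk1, Nr3c2, Tsc22d3, Nr3c1, Fkbp5, H6pd, Crispld2, Zbtb16 and Hsd11b1. The neighbours Nr3c2, Tsc22d3, Nr3c1 and Fkbp5 overlapped each with the next, as did Zbtb16 and Hsd11b1. TNBS thymopentin gave the same order and the same overlaps, except that H6pd and Crispld2 overlapped and Zbtb16 and Hsd11b1 did not. In DSS saline Crispld2 stood at rank 5, and every neighbour from Tsc22d3 down to H6pd overlapped with the next. In DSS thymopentin Crispld2 and H6pd were the lowest of the 10, at ranks 9 and 10, below Hsd11b1 and Zbtb16, and Crispld2 overlapped with Zbtb16 but not with H6pd.

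Other genes of the pathway were counted from lists chosen with earlier results of these data known. Among 27 tested glucocorticoid receptor targets beyond the 10 genes, none was called in TNBS, against 0.667% of all tested genes. The TNBS median was -0.04, against 0.03 for all tested genes. In DSS 3 rose and 3 fell (median -0.06, against 0.12), where 12.7% of all tested genes rose and 4.3% fell. Pck1, which makes glucose precursors, rose from 15.3 to 37.7 FPKM on average (1.24 ± 0.16, SE, limma adjusted p = 0.00155). The crosslinking enzyme Tgm2 fell by 0.92 (± 0.14, adjusted p = 0.00276) and the kinase Map3k6 by 0.91 (± 0.17, adjusted p = 0.00891). Glul, glutamine synthetase, rose by 0.45 ± 0.11 (adjusted p = 0.0235), a call lost when DSS saline 1 or 3 or a single DSS thymopentin library of the 3 was left out (up to 0.0679), with the 6 DSS libraries alone (0.0565) and under quantile or median-ratio scaling (up to 0.0920). The other calls, named after their values were seen, were the receptor kinase Mertk (0.54 ± 0.16, adjusted p = 0.0441) and the tyrosine-degrading enzyme Tat (-0.82 ± 0.22, adjusted p = 0.0317). Mertk kept its call in 11 of 21 alternatives (adjusted p up to 0.14) and Tat in 15 of 21 (up to 0.0919). Both were lost with no expression minimum, without DSS saline 1 or 3 and without DSS thymopentin 2 or 3, Tat also without DSS thymopentin 1, and Mertk also without DSS saline 2, TNBS saline 1 or TNBS thymopentin 1 and under quantile or median-ratio scaling. The count of higher targets was 1 without DSS saline 1 or 3 or DSS thymopentin 2 or 3, and the count of lower ones 5 without TNBS saline 2 and 6 without DSS saline 2. Per1, Klf9 and Dusp1, classical targets picked for naming though uncalled, were at -0.05, -0.06 and -0.90 in DSS (adjusted p = 0.894, 0.753 and 0.173). By sign alone 18 of the 27 targets were lower and 9 higher in DSS. Over the 13794 tested genes 4679 were lower and 9112 higher, and this contrast was not tested.

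Of 11 receptor chaperones 2 rose in DSS, against 12.7% of all tested genes, and none was called in TNBS, against 0.667%. Hsp90ab1, the constitutive HSP90 that holds the receptor ready for hormone, rose by 0.61 ± 0.12 (SE, limma adjusted p = 0.00896). Fkbp4, the cochaperone that replaces Fkbp5 when the receptor moves to the nucleus, rose by 0.57 ± 0.13 (adjusted p = 0.0160), a call lost without DSS saline 3 (0.0641), with the 6 DSS libraries alone (0.0511) and under median-ratio scaling (0.0555). In its group means Fkbp4 thus lay opposite to Fkbp5, and this contrast was not tested. Of 14 genes of mineralocorticoid response and sodium transport 2 rose in DSS and none was called in TNBS, against the same shares. They were Wnk4, a kinase that sets salt transport (1.0 ± 0.18, adjusted p = 0.00679), and Prss8, a protease that activates the sodium channel (0.61 ± 0.13, adjusted p = 0.0146; 0.0575 without DSS thymopentin 2). The list medians in DSS were 0.09 for chaperones and 0.10 for sodium transport, both near the 0.12 of all tested genes. By sign alone 9 of the 14 sodium transport genes were higher in DSS and 5 lower. Fxyd4, an uncalled gene of that list, was at 17.7, 22.1 and 29.5 FPKM in DSS saline and 3.48, 4.99 and 3.25 in DSS thymopentin. Without 1 library the list gave 1 to 3 higher calls and 0 to 1 lower ones in DSS.

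Intestinal steroid synthesis was represented by 6 tested genes of 12, since Cyp11b1, the last enzyme of corticosterone synthesis, was listed at 0 in all 12 libraries and Cyp11a1 stayed at or below 0.137 FPKM. Of the 6, 3 rose in DSS, against 12.7% of all tested genes, and none was called in TNBS, against 0.667%. They were Nr5a2, the nuclear receptor that drives steroid synthesis in gut epithelium (0.68 ± 0.13, SE, limma adjusted p = 0.00743), Stard3, a cholesterol carrier (0.47 ± 0.08, adjusted p = 0.00483), and Fdxr, which passes electrons to mitochondrial steroid enzymes (0.39 ± 0.09, adjusted p = 0.0180). Fdxr lost its call without DSS saline 3 or DSS thymopentin 2 or 3 (up to 0.0649), with the 6 DSS libraries alone (0.0640) and under median-ratio scaling (0.0628). Around H6pd, 11 genes of NADPH supply and the pentose phosphate route gave 1 call in each direction in DSS and none in TNBS. Of all tested genes 12.7% rose and 4.3% fell in DSS. Slc37a4, which carries glucose 6-phosphate into the endoplasmic reticulum where H6pd uses it, rose by 0.58 ± 0.14 (adjusted p = 0.0192; up to 0.0657 without DSS saline 1 or 3 or DSS thymopentin 1). G6pc3, a phosphatase that consumes the same sugar phosphate, fell by 0.48 (-0.48 ± 0.13, adjusted p = 0.0304). It lost that call without any 1 DSS library except saline 2 (up to 0.0910) and with no expression minimum (0.0588).

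**Figure D5:**
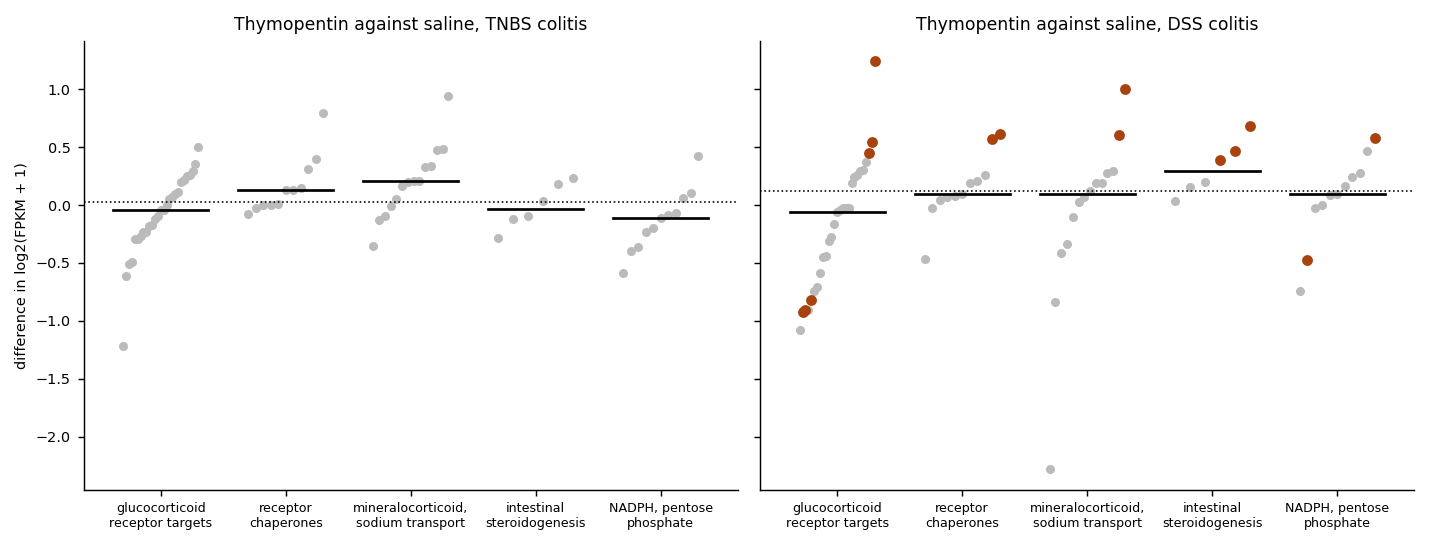
Difference in log2(FPKM + 1), thymopentin minus saline, for each tested gene of 5 pathway lists (points) in TNBS (left) and DSS (right); coloured points passed limma at an adjusted p under 0.05, black lines are list medians and the dotted line is the median of all tested genes. No gene of these lists passed in TNBS, and in DSS the calls lie on both sides of 0.

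None of the tested close relatives of the members was called with thymopentin. Of all tested genes 17% were called in DSS and 0.667% in TNBS. So few relatives were tested that this absence of calls says little about them. Of 13 genes of the CAP family, to which Crispld2 belongs, Glipr1 and Glipr2 were tested, and neither was called with thymopentin in either model. Glipr1 was higher in DSS than in TNBS, by 1.23 ± 0.12 under saline and 0.99 ± 0.12 under thymopentin (limma adjusted p = 6.55e-05 and 0.000518). The 7 tested HSD17B genes and the 3 TSC22 family genes had no call with thymopentin.

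Between the models under saline, 10 of 27 receptor targets were higher in DSS and 8 lower, 7 of 14 sodium transport genes were lower and 2 higher, 7 of 11 NADPH genes were lower, 5 of 11 chaperones were lower and 1 higher, and 4 of 6 steroid synthesis genes were lower. All tested genes gave 15.2% higher and 31.5% lower. Without TNBS saline 3 or DSS saline 3 the count of higher targets was 6, and without TNBS saline 3 or DSS saline 1 that of lower chaperones was 3. Hsd3b2, a dehydrogenase of steroid synthesis, was lower by -1.45 ± 0.23 (SE, limma adjusted p = 0.000743), and the transcription factor Sox4 by -0.98 ± 0.10 (adjusted p = 0.000102). Under thymopentin 7 of 14 sodium transport genes were lower in DSS, against 16.5% lower and 11% higher over all tested genes, with Scnn1a, the alpha subunit of the epithelial sodium channel, at -0.73 ± 0.12 (adjusted p = 0.00299). In that list 1 gene was higher, Usp2, a deubiquitinase (0.59 ± 0.11, adjusted p = 0.00429). Of 27 receptor targets 4 were lower and 2 higher, of 11 NADPH genes 3 were lower and 1 higher, of 6 steroid synthesis genes 2 were lower and of 11 chaperones 1 was lower. Several of these small counts rest on single libraries. Higher targets numbered 0 without DSS thymopentin 2 or 3 and 1 without TNBS thymopentin 3. Lower NADPH genes numbered 1 without TNBS thymopentin 1 or 2 or DSS thymopentin 2 or 3, and the higher ones 2 without TNBS thymopentin 2. Lower chaperones numbered 0 without TNBS thymopentin 3 or DSS thymopentin 2 or 3 and 2 without DSS thymopentin 1. Lower steroid synthesis genes numbered 1 without any 1 of TNBS saline 1, TNBS thymopentin 1, TNBS thymopentin 3, DSS saline 2 and DSS saline 3, and when a DSS thymopentin library (1, 2 or 3) was left out.

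The genes whose pattern was most like that of Crispld2 over the 12 libraries, by Pearson correlation of log2(FPKM + 1) among 11898 named tested genes, were Tinagl1 (0.925), the matrix protein Fn1 (0.910), the kinase Sgk2 (0.899), the hormone somatostatin Sst (0.896) and the sodium pump subunit Atp1b3 (0.896). Within the 6 TNBS libraries these correlations were 0.854, 0.920, 0.331, 0.802 and 0.846, and within the 6 DSS libraries 0.933 to 0.969. For H6pd they were Hk2 (hexokinase, 0.913), Sgk2 (0.909), the kinase Ptk6 (0.908), Fkbp5 (0.893) and Nos2, the inducible nitric oxide synthase (0.891). In TNBS alone these came to -0.357, 0.289, 0.255, 0.116 and 0.652, against 0.914 to 0.986 in DSS alone. Crispld2 and H6pd correlated at 0.840 over all libraries, 0.991 within DSS and -0.067 within TNBS. Libraries of a group share their treatment and scaling, so a correlation over 2 groups mostly restates their difference.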

How the data were processed

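RNA was measured in 12 mouse colon libraries, in 4 groups of 3 libraries taken from the treatment labels and titles. Per the labels, total RNA was extracted with TRIzol and made into strand-specific TruSeq libraries. Per the submitters' processing notes, FastQC, STAR 2.5, Cuffnorm, DESeq 1.22.1 and the build mm9 were used, with no role or order given. The authors deposited FPKM for 55335 genes. For selected genes of each model, per the file headers, the authors deposited a p-value, an FDR and a log2 fold change beside per-library log2 values. In these, all 7326 low values of up to 30 reads came out as whole reads within 0.01, with size factors of 0.847 to 1.12. A count test was not run because only genes the authors had selected have reads.

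The 13794 genes whose mean FPKM reached 1 were tested with limma 3.58.1 in R 4.3.3 on log2(FPKM + 1). The model held 4 group means, an empirical Bayes trend and 8 residual degrees of freedom. Tests are two-sided, with Benjamini-Hochberg adjustment within each of 5 comparisons: thymopentin against saline in each model, the difference of these responses, and DSS against TNBS within each treatment. It was tested on simulated data. The members and gene lists were chosen with earlier results of these data known. Genes named besides the members are, per list and comparison, up to 4 called genes by p, of which a selection is given. Also named are 5 genes by likeness to Crispld2 and 5 to H6pd. For DSS Mertk, Tat, Per1, Klf9 and Dusp1 were added to these. Alternatives were the pseudocount, the expression minimum, the scaling, array weights, the samples fitted, a replicate block and leaving out each library.

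Deviations from the group means correlated at 0.124, 0.268 and 0.476 between same-numbered TNBS libraries. The labels do not explain the numbers, so the fit held no pairing and the block was an alternative. Promoter sequences are from RefSeq, build GRCm38.p6. Python 3.11.15, pandas 2.3.3, numpy 2.4.6 and matplotlib 3.10.9 read the tables and drew the plots. The sources used here do not give total reads.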

Additional observations from a re-analysis of the deposited data

Results flagged for a closer look

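The thymopentin responses of 6 of the 81 tested genes of the pathway and family lists (7.41%) differed between the models by limma's test of the difference, DSS minus TNBS on the log2(FPKM + 1) scale, against 5.15% of all tested genes. Map3k6 differed by -1.16 (adjusted p = 0.0286), Tgm2 by -0.88 (0.0305), G6pc3 by -0.90 (0.0229), Pck1 by 1.0 (0.0336), Prss8 by 0.74 (0.0491) and Stard3 by 0.56 (0.0215). Each of these calls was lost without TNBS saline 1 (adjusted p from 0.0549 to 0.0966) and without some other single libraries, and with the replicate block those of Pck1 and Prss8 were lost (0.0742 and 0.0673). With no expression minimum Map3k6 (0.0624), Tgm2 (0.0607), Pck1 (0.0669) and Prss8 (0.0890) were lost, and with quantile scaling Pck1 (0.0830), Prss8 (0.0868) and Stard3 (0.0522). Prss8 was also lost with a pseudocount of 5 (0.0555) and under median-ratio scaling (0.0743). For Crispld2 all 3 DSS thymopentin libraries lay below all DSS saline libraries (-2.56). In TNBS all 3 thymopentin libraries lay above all saline libraries (0.53). Saline and thymopentin groups did not overlap, in either direction, for 39.8% of all tested genes in DSS and 18.8% in TNBS. The share of genes without overlap in both models and in opposite directions was not computed. No test of the difference between these Crispld2 responses is given, because the gene was chosen with its thymopentin values in view.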

How the results depend on the processing

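Of 822 values of members under the alternatives, 775 kept their direction and their side of the threshold, 13 dropped out of the call, 10 entered it and 24 changed sign, each of them outside the call before and after. Signs changed with quantile, median-ratio and array-weight fits for Sgk1 in DSS (-0.11, -0.12 and -0.38) and Fkbp5 between models under saline (0.068, 0.068 and 0.019), and with quantile and array-weight fits for Hsd11b2 between models under thymopentin (-0.056 and -0.079). Without 1 library the ranges that cross 0 were -0.030 to 0.25 for Fkbp5 and -0.22 to 0.075 for Nr3c1 in TNBS, -0.51 to 0.49 for Sgk1 and -0.27 to 0.16 for Tsc22d3 in DSS, -0.13 to 0.057 for Per1 and -0.17 to 0.034 for Klf9 in DSS, and -0.016 to 0.61 for Hsd11b2 in the difference. Between the models they were -0.28 to 0.19 for Fkbp5 and -0.095 to 0.30 for Tsc22d3 under saline, and -0.25 to 0.062 for Nr3c2, -0.32 to 0.30 for Hsd11b2 and -0.34 to 0.0082 for Tsc22d3 under thymopentin. The count of called members other than Crispld2 and H6pd went from 2 to 1 in DSS with no expression minimum, with the 6 DSS libraries alone and with the replicate block, where Fkbp5 dropped out each time (block adjusted p = 0.0586). The block also ended the DSS calls of Fdxr (0.0502), Slc37a4 (0.0586) and G6pc3 (0.0525). With array weights, whose estimation stopped before convergence, the difference between the responses went from 0 to 2 and the model comparison under saline from 3 to 5. Counts between the models include Crispld2 and H6pd where tested, and the calls of these 2 genes are not independent of their choice. At a mean FPKM of at least 5, which removes Crispld2 and H6pd, the model comparison under thymopentin went from 4 to 2. Without 1 library the counts ran from 0 to 0 in TNBS, 1 to 2 in DSS, 0 to 1 for the difference, 3 to 4 between models under saline and 3 to 5 under thymopentin. With the replicate block the member counts were 0 in TNBS, 0 for the difference, 3 and 4 between the models, so the pairing changed no other count. Among all tested genes the block gave 79 calls in TNBS (92 without it) and 1944 in DSS (2346 without it). Same-numbered DSS libraries correlated at -0.136, 0.0427 and -0.14 and share only a number. Counts over all tested genes moved by more than 1.5 times in TNBS from 92 to 44 with no minimum, 2547 with array weights and 6 with the TNBS libraries alone, with 41 to 114 without 1 library. In DSS 2346 became 1447 at the higher minimum and 4025 with weights, with 916 to 2524 without 1 library. For the difference 710 became 355, 385 and 2889 with no minimum, the higher minimum and weights, with 177 to 770 without 1 library. Under saline 6431 became 3661 at the higher minimum, and under thymopentin 3799 ran from 2056 to 4008 without 1 library. The difference could not be refitted on 6 libraries alone. The cause of these changes was not tested. Low FPKM limits Hsd11b1 and Zbtb16, which have no recovered reads.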
